A study of Homo sapiens with 2 samples.

Results

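The acid compartment of the cell was described here in 2 human melanoma lines, through 71 genes out of the 19775 genes measured. The 71 genes are 20 subunits of the vacuolar proton pump, taken as every gene whose symbol begins with ATP6V, 1 antisense RNA with the same prefix, and 50 of 53 listed lysosomal enzymes and membrane proteins. IGR37 is a line grown from a lymph node metastasis, and IGR39 is a line grown from a primary skin tumour recorded as achromic. Both are established human melanoma lines that were kept in DMEM with 10% serum and antibiotics, without any genetic change or treatment named in the labels. Total RNA of each line was extracted with TRIzol and hybridised to 1 Affymetrix U133 Plus 2.0 array, which reads each gene with 1 or more probe sets. The series' design text also names breast lines, which were not analysed here.

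Lysosomes are acidic organelles in which hydrolases break down proteins, glycans and lipids. The vacuolar proton pump acidifies them: its V1 sector, on the cytosolic side, hydrolyses ATP, and its V0 sector, in the membrane, carries the protons. Melanosomes, the pigment organelles of melanocytes, share membrane proteins and trafficking machinery with lysosomes, and the MiT/TFE transcription factors TFEB, TFE3 and MITF are known to bind E-box sequences near lysosomal genes.

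All values are log2 expression levels, and a difference is the level in IGR37 minus the level in IGR39, so that a difference of 1 is a 2-fold higher level in IGR37. With 1 array per line there was no replicate, no difference could be tested, and the values stand without p-values or standard errors. The number of arrays limits the precision. Each gene was represented by its brightest probe set (by the mean of the 2 arrays), and levels are not compared between genes. Genes with a mean below log2 6 over both arrays were treated as near background. The array medians were 4.14 in IGR37 and 4.17 in IGR39. Control RNA added at hybridisation, read by 18 probe sets, had a median difference of 0.02 (SD 0.08 across probe sets). Poly-A control RNA, added before labelling and read by 27 probe sets, had a median difference of 0.23, from -0.47 to 0.68. Among the 2722 genes with several probe sets above the minimum, the differences of the probe sets of 1 gene had a pooled SD of 0.34.

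The lines were checked against cell type markers. All 7 measured melanocyte lineage markers were higher in IGR37 by 2-fold or more, and MITF alone reached log2 6 in IGR39. PMEL, a structural protein of melanosomes, was at 12.47 in IGR37 and 4.29 in IGR39. Of 5 markers of dedifferentiated melanoma, 4 were at least 2-fold lower in IGR37, among them the receptor kinase AXL at 3.68 in IGR37 and 11.24 in IGR39. None of 9 macrophage and lymphocyte markers reached log2 6 in either line, with a highest level of 5.14. Of 5 osteoclast markers, only NFATC1 did, at 6.52 in IGR37 and 6.41 in IGR39. Fibroblast and endothelial markers reached that level for 3 of 9 genes, of which FAP was at 6.83 in IGR37 and 8.85 in IGR39, and LUM at 6.26 in IGR37 and 3.41 in IGR39. Among 4 keratinocyte markers it was reached by KRT10 alone, at 9.08 in IGR37 and 9.13 in IGR39. The values below therefore compare a line with melanocyte markers with a line that holds few of them, and the part of that difference in each lysosomal value was not tested.

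The E-box that MiT/TFE factors bind near lysosomal genes was looked for in RefSeq promoters (build GRCh38.p14), each running from 250 bases before to 50 bases after a gene's start. The letters searched were TCACGTG on either strand, which read CACGTGA on the other, and 50 of the 70 pump and listed genes had a promoter there. The windows below show this stretch in capitals with 17 bases on each side, read 5′ to 3′ along the gene. They cover a pump subunit past 2-fold, 2 subunits within it, 3 listed genes past 2-fold, and 2 listed genes whose difference was small. The matched genes that were lower in IGR37, GALNS, CLN3 and CTSA, are not among them. ATP6V0B, MCOLN1 and GAA hold 2 stretches each and LAMP1 holds 6, of which 1 per gene is shown.
ATP6V0B: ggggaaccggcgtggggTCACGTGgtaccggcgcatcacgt
ATP6V0D1: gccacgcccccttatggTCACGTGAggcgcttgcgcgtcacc
ATP6V1G1: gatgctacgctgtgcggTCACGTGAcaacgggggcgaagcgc
CTSD: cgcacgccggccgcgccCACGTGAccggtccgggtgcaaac
CTSF: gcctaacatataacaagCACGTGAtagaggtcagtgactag
MCOLN1: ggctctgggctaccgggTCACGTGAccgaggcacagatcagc
GAA: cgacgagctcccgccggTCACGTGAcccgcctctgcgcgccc
LAMP1: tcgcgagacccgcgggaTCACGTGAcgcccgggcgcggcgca
The ATP6V0B window lies at chr1:43974885-43974925 on the plus strand, and its capitals begin 58 bases before the gene's start. Those of ATP6V0D1 (chr16:67481193-67481234, minus strand) and ATP6V1G1 (chr9:114587693-114587734, plus strand) begin 60 and 59 bases before the start. The CTSD window (chr11:1763951-1763991, minus strand) has its match 47 bases before the start, and the CTSF window (chr11:66568706-66568746, minus strand) 123 bases before it. In MCOLN1 (chr19:7522592-7522633, plus strand) the match begins 15 bases before the start, in GAA (chr17:80101532-80101573, plus strand) 32 bases and in LAMP1 (chr13:113297193-113297234, plus strand) 29 bases. The palindrome TCACGTGA appears in 5 of the 8 windows, in which both strands carry the searched letters.

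The pump subunits were mostly higher in IGR37, by less than 2-fold for most. Of 20 subunits, 16 had a higher level in IGR37, 4 were at least 2-fold higher (20.0%, against 5.8% of all genes) and none was 2-fold lower (against 4.85% of all genes). Their median difference was 0.65, against 0.00 over all genes. Of the 14 subunits with a mean of at least log2 6, 13 were higher in IGR37 and 3 were past 2-fold, with a median of 0.82. Over the 7751 genes at that level, 9.83% were at least 2-fold higher, 7.66% at least 2-fold lower, and the median was 0.07. Differences above the poly-A control range were found for 9 of 20 subunits (45.0%), against 10.1% of all genes, and below it for 1 (5.0%), against 12.0%. Among genes with a mean of at least log2 6, they were above it for 8 of 14 subunits (57.1%), against 18.1%, and below it for 1 (7.14%), against 18.7%. In RNA of a whole culture, fewer cells with a transcript and less of it per cell cannot be told apart. When each array was centred on its own median level over a list of housekeeping genes, the all-gene median moved by -0.37. The pump median was then 0.28 and 1 subunit was past 2-fold, with none lower. The median difference of the housekeeping genes themselves was 0.11, so this centring moved values by more than those genes typically differed.

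**Figure D1:**
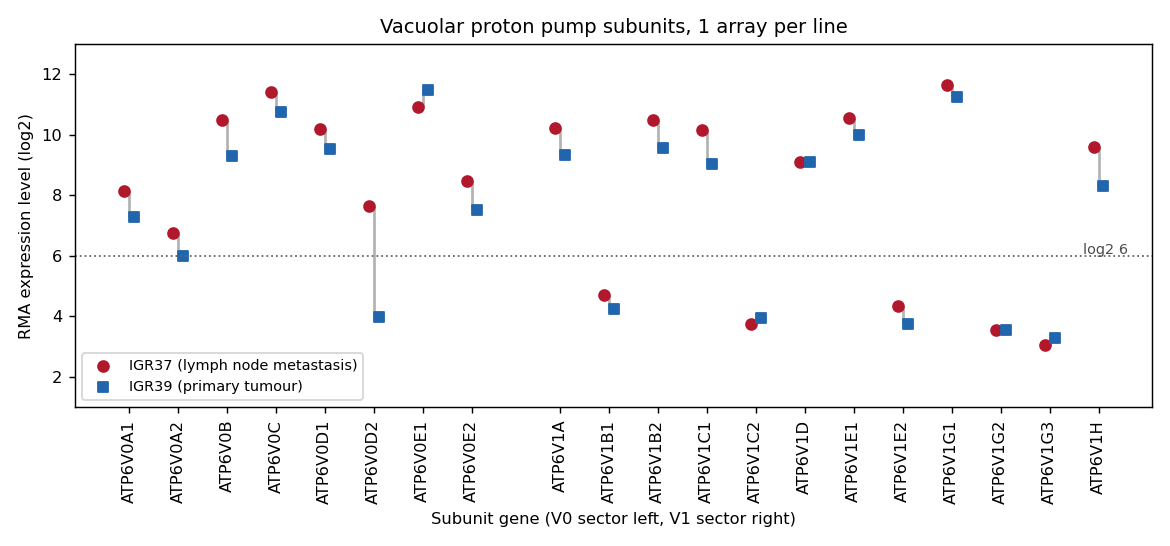
Log2 level of each pump subunit (horizontal axis lists the genes, vertical axis the level) in IGR37 and in IGR39, 1 array each, with the level minimum of log2 6 drawn as a line. ATP6V0D2 shows the widest gap, at 7.64 in IGR37 and 3.99 in IGR39, and ATP6V0E1 lies lower in IGR37.

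In the membrane sector V0, 7 of 8 subunits were higher in IGR37, with a median difference of 0.82. ATP6V0D2, an isoform of subunit d known from osteoclasts, was at 7.64 in IGR37 and 3.99 in IGR39, a measured difference of 3.66. The IGR39 level was near background, and with it set to the minimum of log2 6 the level in IGR37 was at least 3.12-fold higher. The measured difference was the widest among the pump genes, and its 3 probe sets differed by 3.33 to 3.80, although its mean over both arrays was below log2 6. The osteoclast markers other than NFATC1 lay below log2 6 in both lines. The widespread isoform of the same subunit, ATP6V0D1, differed far less, at 10.20 in IGR37 and 9.55 in IGR39 (0.65).

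ATP6V0B, which encodes a subunit of the proton-carrying ring, was at 10.50 in IGR37 and 9.31 in IGR39, a 2.29-fold higher level. ATP6V0C, the main ring subunit, was at 11.41 in IGR37 and 10.77 in IGR39 (0.65). For the large subunit a, through which protons pass, ATP6V0A1 was at 8.15 in IGR37 and 7.28 in IGR39 (0.87). Its isoform ATP6V0A2 was at 6.76 in IGR37 and 6.00 in IGR39 (0.76), but only 1 of its 6 probe sets was above the minimum, and the mean difference over all of them was 0.15.

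The small subunit e has isoforms that lay on opposite sides of 0. ATP6V0E2 was at 8.48 in IGR37 and 7.51 in IGR39 (0.96), whereas ATP6V0E1 was at 10.92 in IGR37 and 11.50 in IGR39 (-0.58). ATP6V0E1 was the only V0 subunit lower in IGR37, and its 6 probe sets above the minimum spread from -0.58 to 0.13. The antisense RNA ATP6V0E2-AS1 was near background, at 4.46 in IGR37 and 3.78 in IGR39.

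In the catalytic sector V1, the 12 subunits had a median difference of 0.53, and the 7 with a mean of at least log2 6 all had a difference above 0, with a median of 0.89. ATP6V1H, a regulatory subunit of the sector, had the widest V1 gap, at 9.60 in IGR37 and 8.31 in IGR39, or 2.44-fold. Its other 2 probe sets were near background in both lines and differed by -0.10 and 0.03, so the ATP6V1H value rests on 1 probe set. ATP6V1C1, whose product helps to hold V1 on V0, was at 10.17 in IGR37 and 9.04 in IGR39, or 2.19-fold, and its 3 probe sets above the minimum differed by 1.13 to 1.52.

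The subunits that form the catalytic head were just short of 2-fold. ATP6V1A, which binds and hydrolyses ATP, was at 10.23 in IGR37 and 9.33 in IGR39 (0.89), and its second probe set at 8.33 in IGR37 and 6.96 in IGR39 (1.37). Its partner ATP6V1B2 was at 10.49 in IGR37 and 9.56 in IGR39 (0.93). Of the stalk subunits, ATP6V1E1 was at 10.56 in IGR37 and 9.98 in IGR39 (0.58), and ATP6V1G1 at 11.63 in IGR37 and 11.26 in IGR39 (0.37). ATP6V1D, part of the rotating shaft, was at 9.10 in IGR37 and 9.09 in IGR39, the smallest difference of the detected subunits. The remaining isoforms, known from specialised tissues such as kidney, testis and brain, were below log2 6 in both lines. They were ATP6V1B1, ATP6V1C2, ATP6V1E2, ATP6V1G2 and ATP6V1G3, with differences from -0.23 to 0.60. ATP6V1F, whose probe set carries more than 1 gene symbol, was not analysed here.

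The accessory proteins of the pump, which belong to the listed genes, were within 2-fold. ATP6AP1, which assists pump assembly, was at 9.08 in IGR37 and 8.95 in IGR39 (0.13). ATP6AP2, also called the prorenin receptor, was at 9.87 in IGR37 and 10.18 in IGR39 (-0.31).

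Of the 50 listed lysosomal genes, 35 had a higher level in IGR37. There were 14 at least 2-fold higher (28.0%, against 5.8% of all genes) and 1 at least 2-fold lower (2.0%, against 4.85%), with a median difference of 0.30. Of the 41 with a mean of at least log2 6, 13 were past 2-fold (31.7%, against 9.83%), none was 2-fold lower (against 7.66%), and the median was 0.41. Differences above the poly-A control range were found for 19 of 50 listed genes (38.0%), against 10.1% of all genes, and below it for 5 (10.0%), against 12.0%. Among genes with a mean of at least log2 6, they were above it for 18 of 41 listed genes (43.9%), against 18.1%, and below it for 3 (7.32%), against 18.7%. Under the housekeeping centring the split of the listed genes was 9 higher and 2 lower, and their median was -0.069 while that of all genes was -0.37. Without probe sets whose names end in _x_at or _s_at, which can bind several transcripts, 38 listed genes were measured and 6 were past 2-fold. CTSF, CTSH, CTSK, MAN2B1 and MCOLN1 were then not measured. A group of 8 was below log2 6 in both lines, namely CTSO, CTSS, ARSA, ARSB, IDUA, GAA, MANBA and GALC.

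**Figure D2:**
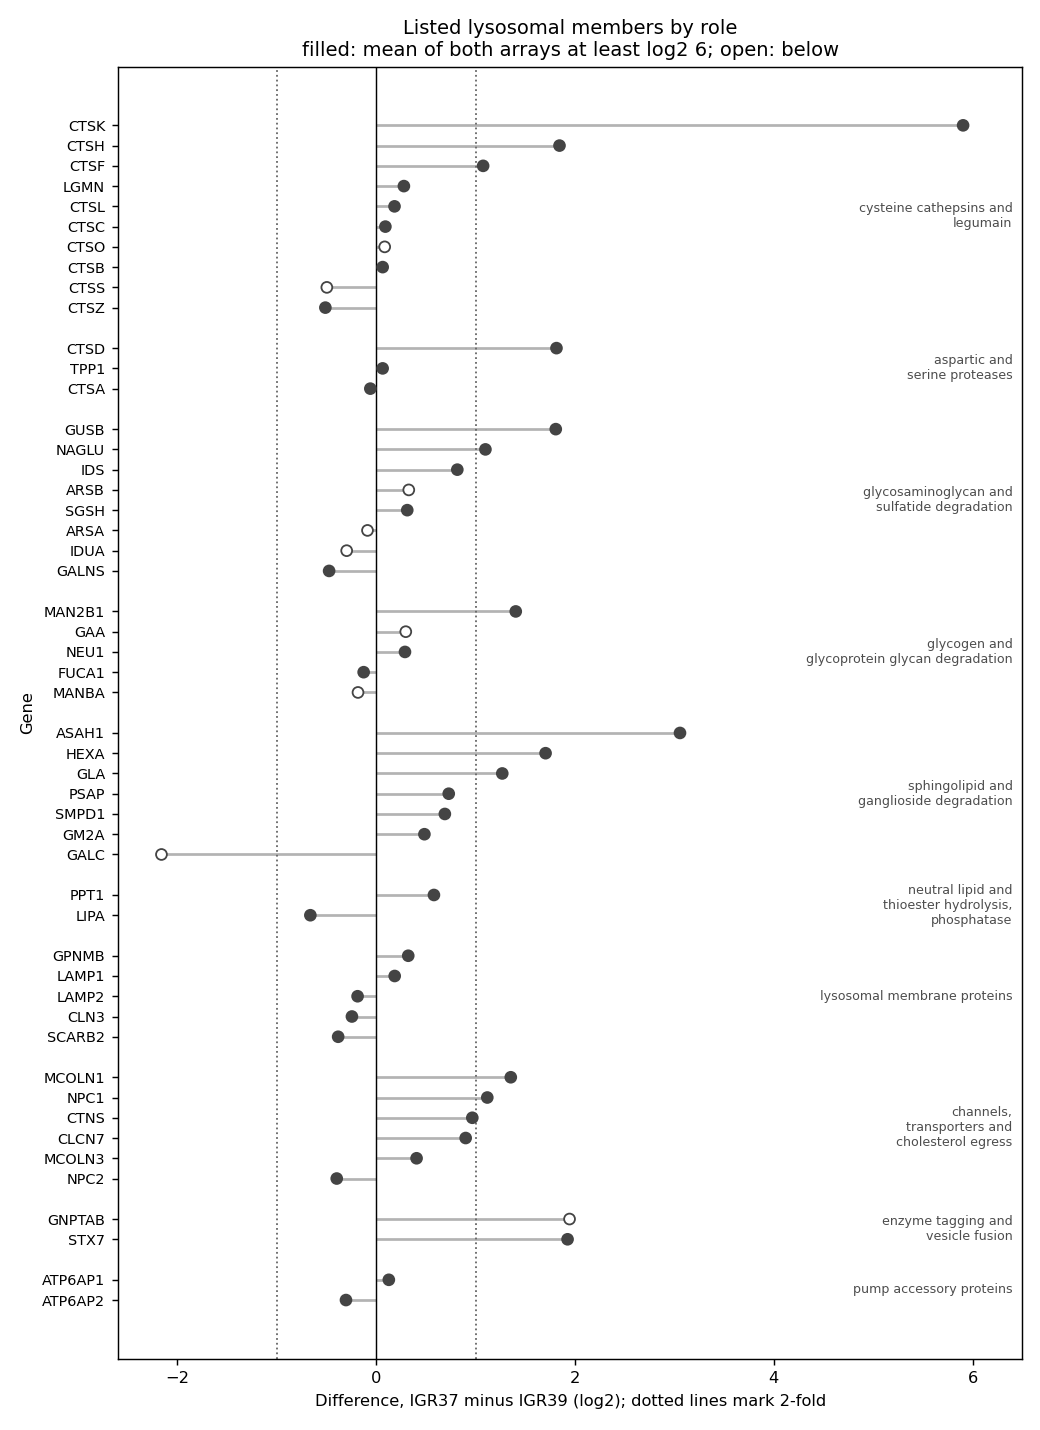
Log2 difference, IGR37 minus IGR39, of each listed gene (horizontal axis), grouped by role down the vertical axis. Filled points have a mean of at least log2 6 over both arrays, open points do not; CTSK at 5.90 and ASAH1 at 3.06 lie farthest right, and GALC at -2.16 farthest left.

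Among the cysteine cathepsins and legumain, 3 of 10 (30.0%, against 5.8% of all genes) were higher in IGR37 by 2-fold or more. None was 2-fold lower (against 4.85%), and the median was 0.14. Of the 8 with a mean of at least log2 6, 3 were higher (37.5%, against 9.83%). CTSK, the collagen-degrading cathepsin of osteoclasts, was at 10.03 in IGR37 and 4.13 in IGR39, a measured difference of 5.90 by 1 probe set. With the IGR39 level, which was near background, set to log2 6, CTSK was at least 16.3-fold higher in IGR37, and its measured difference was the widest of all members. CTSH, an aminopeptidase, was at 10.33 in IGR37 and 8.49 in IGR39 (3.59-fold), and CTSF at 7.33 in IGR37 and 6.26 in IGR39 (2.11-fold).

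The other cathepsins of this class were within 2-fold. The broadly expressed CTSB was at 11.13 in IGR37 and 11.06 in IGR39 (0.06), and CTSL at 11.20 in IGR37 and 11.02 in IGR39 (0.18). CTSC, which activates granule proteases, was at 8.48 in IGR37 and 8.38 in IGR39, though its 3 probe sets above the minimum ranged from 0.09 to 1.02. CTSZ, a carboxypeptidase, was at 7.34 in IGR37 and 7.85 in IGR39 (-0.51), and LGMN, an asparaginyl endopeptidase, at 6.49 in IGR37 and 6.21 in IGR39 (0.28). CTSS, known from antigen-presenting cells, was below the minimum, at 4.90 in IGR37 and 5.39 in IGR39, and CTSO at 3.80 in IGR37 and 3.72 in IGR39. CTSD, the aspartic protease, was at 9.30 in IGR37 and 7.49 in IGR39, or 3.51-fold. The serine proteases lay near 0, with CTSA at 9.75 in IGR37 and 9.81 in IGR39 and TPP1 at 8.76 in IGR37 and 8.69 in IGR39.

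Of 8 enzymes that degrade glycosaminoglycans or sulfatide, 2 were past 2-fold. GUSB, the beta-glucuronidase, was at 9.21 in IGR37 and 7.40 in IGR39 (3.50-fold), and NAGLU, which acts on heparan sulfate, at 7.52 in IGR37 and 6.42 in IGR39 (2.14-fold). In both genes the second probe set was near background, differing by 0.25 for GUSB and 0.13 for NAGLU. IDS, the iduronate sulfatase, was at 7.83 in IGR37 and 7.01 in IGR39 (0.81), but its 4 probe sets above the minimum ran from -0.62 to 0.81 and give no single direction. SGSH, a sulfamidase of heparan sulfate, was at 6.48 in IGR37 and 6.17 in IGR39, and GALNS, which acts on keratan sulfate, at 6.23 in IGR37 and 6.71 in IGR39 (-0.47). Of those near background, the arylsulfatase ARSA differed by -0.09, its relative ARSB by 0.33 and the iduronidase IDUA by -0.30.

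Of 5 enzymes of glycogen and glycoprotein glycans, 1 (20.0%, against 5.8% of all genes) was at least 2-fold higher in IGR37. This was MAN2B1, the lysosomal alpha-mannosidase, at 7.13 in IGR37 and 5.73 in IGR39 (at least 2.19-fold with IGR39 set to log2 6). The sialidase NEU1 was at 8.07 in IGR37 and 7.78 in IGR39 (0.29), and the fucosidase FUCA1 at 7.92 in IGR37 and 8.05 in IGR39 (-0.13). GAA, the acid alpha-glucosidase that degrades glycogen, was at 5.90 in IGR37 and 5.61 in IGR39, and MANBA, a beta-mannosidase, at 4.56 in IGR37 and 4.74 in IGR39.

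Sphingolipid and ganglioside breakdown held both the second widest gap among the enzymes and the only 2-fold lower member. Of 7 genes, 3 (42.9%, against 5.8% of all genes) were at least 2-fold higher and 1 (14.3%, against 4.85%) lower, with a median of 0.73. ASAH1, the acid ceramidase, was at 11.73 in IGR37 and 8.67 in IGR39 (8.31-fold, rank 138), and its 4 probe sets above the minimum differed by 3.06 to 3.64. The fifth was at 3.43 in IGR37 and 3.40 in IGR39. HEXA, the alpha subunit of beta-hexosaminidase, was at 9.95 in IGR37 and 8.25 in IGR39 (3.26-fold), while its other 3 probe sets, all dim, differed by 0.16 to 0.94. GLA, the alpha-galactosidase, was at 10.23 in IGR37 and 8.97 in IGR39 (2.41-fold).

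The other genes of this pathway that were higher in IGR37 differed by less than 2-fold. PSAP, the precursor of the saposins that present lipids to these enzymes, was at 11.38 in IGR37 and 10.65 in IGR39 (0.73). GM2A, the activator of ganglioside breakdown, was at 9.41 in IGR37 and 8.93 in IGR39 (0.48), and SMPD1, the acid sphingomyelinase, at 7.68 in IGR37 and 6.99 in IGR39 (0.69). GALC, the galactosylceramidase, was at 3.65 in IGR37 and 5.81 in IGR39, a measured difference of -2.16. Both GALC levels were below log2 6, and its second probe set was at 3.68 in IGR37 and 3.79 in IGR39. Of the lipid enzymes outside this group, LIPA, the acid lipase, was at 8.18 in IGR37 and 8.84 in IGR39 (-0.66), and PPT1, which removes fatty acids from proteins, at 10.58 in IGR37 and 10.00 in IGR39 (0.58).

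Of 5 membrane proteins of lysosomes, apart from the channels and transporters described below, none was past 2-fold. All 5 had a mean of at least log2 6, where 9.83% of all genes were higher and 7.66% lower. These 5 genes are too few for a comparison with such shares. Their differences ran from -0.38 to 0.32. LAMP1, which with LAMP2 lines the lysosomal membrane, was at 11.88 in IGR37 and 11.69 in IGR39, and LAMP2 at 9.60 in IGR37 and 9.79 in IGR39. A dimmer LAMP1 probe set was at 7.41 in IGR37 and 4.76 in IGR39, a difference of 2.65 that its other 2 probe sets at or above that brightness did not show (0.18 and 0.04). SCARB2, the receptor that carries glucocerebrosidase to lysosomes, was at 8.49 in IGR37 and 8.88 in IGR39 (-0.38). GPNMB, a glycoprotein of melanosomes and lysosomes, was at 11.47 in IGR37 and 11.15 in IGR39 (0.32), and its dimmer probe set at 8.44 in IGR37 and 7.50 in IGR39 (0.94). CLN3, the protein altered in juvenile Batten disease, was at 8.27 in IGR37 and 8.51 in IGR39 (-0.25).

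Channels and transporters lay higher, with 2 of 6 (33.3%, against 5.8% of all genes) at least 2-fold higher and a median of 0.93. All 6 had a mean of at least log2 6, where 9.83% of all genes were 2-fold higher. MCOLN1, the calcium-releasing channel TRPML1, was at 7.10 in IGR37 and 5.74 in IGR39 (at least 2.14-fold with IGR39 set to log2 6), and its relative MCOLN3 at 6.92 in IGR37 and 6.51 in IGR39 (0.41). NPC1, which exports cholesterol from lysosomes, was at 9.22 in IGR37 and 8.10 in IGR39 (2.17-fold). Its other probe sets were near background in both lines and differed by 0.25, 0.11 and -0.04. The 99 genes on the chromosome of NPC1, 18, with a mean of at least log2 6 had a median difference of 0.95. With that median subtracted, the NPC1 difference was 0.17. NPC2, its soluble partner, was at 10.41 in IGR37 and 10.81 in IGR39 (-0.40). CLCN7, the chloride-proton exchanger, was at 8.80 in IGR37 and 7.90 in IGR39 (0.90), and CTNS, the cystine exporter, at 6.89 in IGR37 and 5.92 in IGR39 (0.97).

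Both genes of enzyme tagging and vesicle fusion had a measured difference past 2-fold, higher in IGR37, against 5.8% of all genes. Of the 2, only STX7 had a mean of at least log2 6, where the share of all genes was 9.83%. GNPTAB, which starts the mannose 6-phosphate tag that directs hydrolases to lysosomes, was at 6.62 in IGR37 and 4.68 in IGR39, a measured difference of 1.94. With the IGR39 level set to log2 6 it was at least 1.54-fold higher, which is short of 2-fold, and its other probe sets were dim and differed by 0.14 and 0.06. STX7, a SNARE of late endosomes, was at 8.56 in IGR37 and 6.63 in IGR39 (3.79-fold), and its 3 probe sets above the minimum differed by 1.82 to 2.56, against 0.21 for a dim one. GLB1, CD68 and ACP5 were not analysed here.

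**Figure D3:**
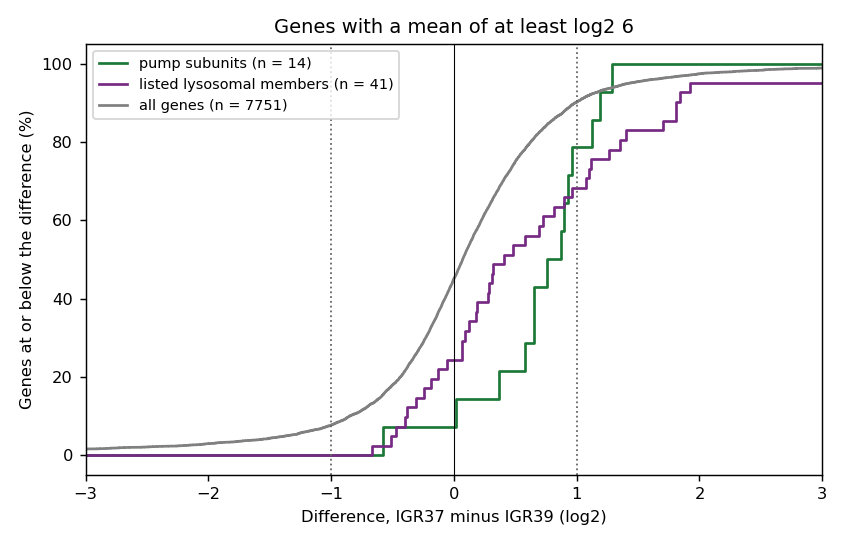
Cumulative share of genes (vertical axis, percent) by log2 difference, IGR37 minus IGR39 (horizontal axis), for pump subunits, listed genes and all genes with a mean of at least log2 6. A difference above 0 was held by 92.9% of 14 pump subunits, 75.6% of 41 listed genes and 55.0% of 7751 genes.

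Agreement between probe sets was read for the 22 pump and listed genes with several of them above the minimum. Their differences shared 1 sign in 18 of 22 genes, with a pooled SD of 0.46 within a gene. The exceptions were ATP6V0E1, IDS, LAMP2 and CLN3. In 3 genes, ATP6V1A, CTSC and LAMP1, the probe sets lay on both sides of 2-fold.

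**Figure D4:**
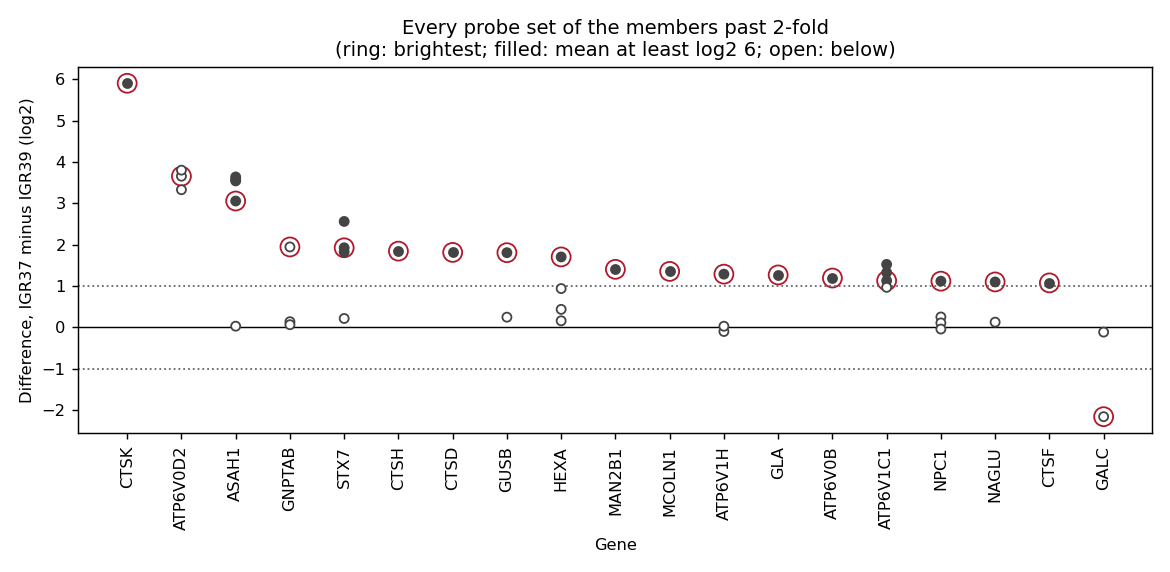
Log2 difference, IGR37 minus IGR39 (vertical axis), of every probe set of the members past 2-fold, which are listed along the horizontal axis; a ring marks the brightest probe set, filled points have a mean of at least log2 6 and open points do not. The probe sets of ATP6V0D2 lie together from 3.33 to 3.80, whereas ATP6V1H and GNPTAB each have dim probe sets near 0.

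The E-box letters TCACGTG were found in the promoters of 15 of the 50 genes (30.0%), against 5.91% of the 15382 array genes with a promoter and 3.71% of all 35093 promoters. The shorter core CACGTG, which lies within these letters, was in the same 15 genes, against 10.9% of the array genes. It was held by 4 of 13 pump subunits, ATP6V0B, ATP6V0D1, ATP6V0E2 and ATP6V1G1. The 11 of 37 listed genes were CTSF, CTSD, CTSA, ARSB, GALNS, GAA, NEU1, LAMP1, CLN3, MCOLN1 and CLCN7, and LAMP1 held 6 stretches. The related letters TCATGTG, known as the M-box core, were in 7 of 50 (14.0%), against 3.02% of the array genes.

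The 15 genes with TCACGTG had a median difference of 0.37, from -0.47 to 1.81. Of these 15, 4 were higher in IGR37 by 2-fold or more and none was lower. The 35 without it had a median of 0.41, with 7 higher and 1 lower. Over the 70 pump and listed genes together, 18 were higher (25.7%, against 5.8% of all genes) and 1 lower (1.43%, against 4.85%). The 20 genes with no promoter in the table had a median of 0.66, and they include ATP6V0D2, CTSK and ASAH1, which have the widest gaps. The others were ATP6V0E1, ATP6V1A, ATP6V1B2, ATP6V1C1, ATP6V1E2, ATP6V1H, CTSB, CTSO, CTSS, LGMN, ARSA, NAGLU, SGSH, MANBA, HEXA, PSAP and LAMP2. Among these others, ATP6V1C1, ATP6V1H, NAGLU and HEXA were also higher in IGR37 by 2-fold or more.

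**Figure D5:**
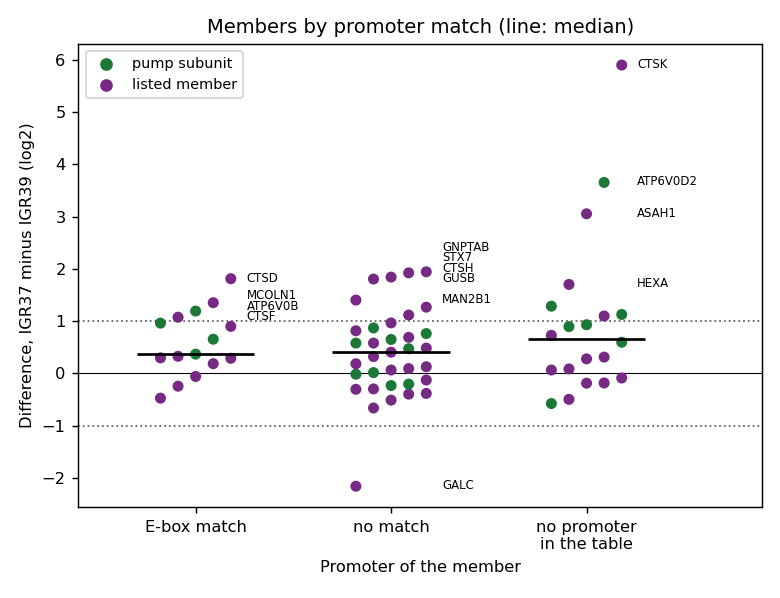
Log2 difference, IGR37 minus IGR39 (vertical axis), of pump subunits and listed genes by promoter group (horizontal axis): with the TCACGTG letters, without them, and with no promoter in the table; short lines mark medians. The medians are 0.37, 0.41 and 0.66, and the groups overlap over most of their range.

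Of the factors known to bind these letters, MITF, the master regulator of melanocytes, was at 11.81 in IGR37 and 7.57 in IGR39, a difference of 4.25 (19.0-fold). TFEB, which drives lysosome formation, was at 6.59 in IGR37 and 6.33 in IGR39 (0.26, or -0.11 with housekeeping centring). TFE3 was on the other side, at 7.66 in IGR37 and 8.97 in IGR39 (-1.32), with a mean of -0.65 over its 4 probe sets. TFEC was at 3.01 in IGR37 and 3.22 in IGR39, and ZKSCAN3, a repressor of lysosomal genes, at 4.95 in IGR37 and 4.66 in IGR39, both near background.

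Of 9 further genes of the pump and its assembly, 3 (33.3%, against 5.8% of all genes) were higher in IGR37 by 2-fold or more. In the other direction, 1 (11.1%, against 4.85%) was lower. At a mean of at least log2 6, 2 of 7 were higher (28.6%, against 9.83%) and 1 lower (14.3%, against 7.66%). TCIRG1, a subunit a isoform whose symbol lacks the prefix, was at 7.03 in IGR37 and 5.69 in IGR39 (1.33). DMXL2, part of the complex that reattaches V1 to V0, was at 7.79 in IGR37 and 5.98 in IGR39 (1.81), and its partner WDR7 at 6.47 in IGR37 and 5.44 in IGR39 (1.03). NCOA7, which binds the pump, was at 5.94 in IGR37 and 7.71 in IGR39 (-1.76). The levels of TCIRG1, DMXL2 and WDR7 in IGR39, and of NCOA7 in IGR37, were below log2 6. With its IGR39 level set to log2 6, WDR7 would be short of 2-fold.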

How the data were processed

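Per the labels, total RNA of each line was biotin-labelled and read on 1 array. The authors deposited 1 log2 expression value per probe set and line, which per the submitters' processing notes came from RMA and affy. Their versions and the set of arrays normalised together are not given in the sources used. RMA equalises the distributions of arrays, so an overall difference in brightness is removed, and it compresses differences between dim values.

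From the 54675 probe sets, 41097 had 1 symbol in the platform annotation, 1801 had several and were left out, and 11777 were not named here. Symbols were updated through gene identifiers to RefSeq (GRCh38.p14; 41043 probe sets matched), which changed no member symbol. The members' 179 probe sets gave 71 genes, by the probe set with the highest mean. Members and gene lists were chosen with earlier results of these data known. Values of both lines are given for members past 2-fold, for up to 2 members per role with the smallest differences, for members whose probe sets disagree about 2-fold, for MITF, TFEB, TFE3, TFEC, TCIRG1, CST3 and CD63, and for genes of the other pathway and housekeeping lists, markers apart, that are past 2-fold with a mean of at least log2 6. Other members, and some markers and factors given beside them, were added for completeness. Alternatives were other minimums, other probe set choices, other centrings and a lowess trend (span 0.3). Counting was checked on simulated data. Python 3.11.15, pandas 2.3.3, numpy 2.4.6, statsmodels 0.14.6 and matplotlib 3.10.9 were used.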

Additional observations from a re-analysis of the deposited data

How the results depend on the processing

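Each difference rests on 1 array per line, so culture, RNA and array cannot be told apart from the line, and dim probe sets limit what can be seen. The pump median of 0.65 was 0.87 over genes with a mean of at least log2 5 or 7 or with log2 6 in the brighter array, 0.82 with a mean of at least log2 6, 0.49 with the mean of all probe sets, 0.45 with their median, 0.53 with _x_at and _s_at probe sets left out, 0.56 after a lowess trend was removed and 0.28 with housekeeping centring. The listed median of 0.30 was 0.41 at a mean of log2 6, 0.44 at log2 6 in the brighter array, 0.19 with the median of probe sets, 0.13 without _x_at and _s_at, and -0.069 with housekeeping centring, whose all-gene median was -0.37. That centring used each array's median level over the list. The median difference of those housekeeping genes themselves was 0.11, smaller in size than the move of the all-gene median, -0.37. Of them TFRC, at 11.65 in IGR37 and 10.25 in IGR39, and RAB7A were past 2-fold. The 4 of 20 pump subunits past 2-fold numbered 2 of 18 without _x_at and _s_at and 1 of 20 with housekeeping centring. They numbered 2 of 20 with chromosome medians subtracted, an alternative chosen after seeing the data. The 14 of 50 listed genes numbered 9 of 32 at a mean of log2 7, 6 of 38 without _x_at and _s_at, and 9 of 50 with housekeeping centring. ATP6V0B, CTSF, CTSH, CTSK, MAN2B1 and MCOLN1 have only _s_at probe sets, so they were unmeasured without these. The share of all genes past 2-fold was not computed under these settings. The 1 listed gene lower by 2-fold numbered 0 under every level minimum, since GALC is dim, and 2 with housekeeping centring. No pump subunit was 2-fold lower under any of the 12 alternatives.

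Of the 26 genes named under the stated rule for being past 2-fold or as factors, 3 of 287 alternative values changed sign, none of a gene past 2-fold: TFEB was -0.11 with housekeeping centring and -0.22 with chromosome medians subtracted, and TFEC 0.010 with the median of probe sets. Of 244 values of genes past 2-fold, 30 no longer passed it. A level minimum, or symbols left as the platform gives them, kept each gene's difference as it was. So did averaging probe sets where a gene had 1. The totals of 287 and 244 therefore include many values that could not change. ATP6V1H, NAGLU, HEXA, NPC1, GNPTAB and TFE3 were within 2-fold when all their probe sets were averaged. Housekeeping centring brought ATP6V0B, ATP6V1C1, ATP6V1H, CTSF, NAGLU, GLA, MCOLN1, NPC1 and TCIRG1 within 2-fold. For the other changes the cause was not tested. No paired analysis was possible because each line has 1 array.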

Other observations

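Enzymes and membrane proteins of lysosomes outside the member list gave a mixed picture. Of 19 further hydrolases, 2 (10.5%, against 5.8% of all genes) were higher in IGR37 by 2-fold or more. None was 2-fold lower (against 4.85%), and the median difference was 0.11. At a mean of at least log2 6, 1 of 12 was higher (8.33%, against 9.83% of all genes), close to the share of all genes. The genes past 2-fold were CPVL and SMPDL3A. CPVL, a carboxypeptidase-like protein, was at 8.08 in IGR37 and 5.32 in IGR39. SMPDL3A, a phosphodiesterase related to acid sphingomyelinase, was at 6.85 in IGR37 and 4.88 in IGR39, with a mean below log2 6. Of 20 further membrane proteins, 4 (20.0%, against 5.8% of all genes) were at least 2-fold higher and 1 (5.0%, against 4.85%) lower. At a mean of at least log2 6, 4 of 14 were higher (28.6%, against 9.83%) and none was lower (against 7.66%). OSTM1, the partner subunit of CLCN7, was at 9.96 in IGR37 and 7.02 in IGR39, a difference of 2.95, wider than the 0.90 of CLCN7 itself. LMBRD1, which serves the release of vitamin B12 from lysosomes, was at 8.24 in IGR37 and 6.31 in IGR39. CLN6 was at 7.53 in IGR37 and 5.96 in IGR39, and the sialic acid exporter SLC17A5 at 7.04 in IGR37 and 5.97 in IGR39. LAPTM5, known from blood cells, was at 5.11 in IGR37 and 6.18 in IGR39, with a mean below log2 6. The tetraspanin CD63 was at 12.71 in IGR37 and 11.72 in IGR39 (0.99).

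Of 11 genes of mannose 6-phosphate tagging and sorting, 3 (27.3%, against 5.8% of all genes) were higher in IGR37 by 2-fold or more. None was 2-fold lower (against 4.85%), and the median difference was 0.59. At a mean of at least log2 6, 3 of 10 were higher (30.0%, against 9.83%). GNPTG, which encodes the gamma subunit of the enzyme that GNPTAB also encodes, was at 8.03 in IGR37 and 6.92 in IGR39. The receptor IGF2R was at 8.90 in IGR37 and 7.79 in IGR39, whereas the second receptor M6PR was at 9.82 in IGR37 and 9.78 in IGR39. The adaptor GGA2 was at 7.34 in IGR37 and 5.94 in IGR39. Of 13 tethering and fusion genes, 2 (15.4%, against 5.8% of all genes) were at least 2-fold higher and 1 (7.69%, against 4.85%) lower. At a mean of at least log2 6, 2 of 11 were higher (18.2%, against 9.83%) and 1 lower (9.09%, against 7.66%). RAB7A was at 9.92 in IGR37 and 8.54 in IGR39, and VPS11 at 7.73 in IGR37 and 6.65 in IGR39. The lower gene, VAMP8, was at 5.83 in IGR37 and 7.45 in IGR39.

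Of 14 autophagy genes, 2 (14.3%, against 5.8% of all genes) were higher in IGR37 by 2-fold or more. In the other direction, 1 (7.14%, against 4.85%) was lower, and the median difference was -0.29. Of the 12 with a mean of at least log2 6, 2 were higher (16.7%, against 9.83%) and 1 lower (8.33%, against 7.66%). WIPI1, which acts in autophagosome formation, was at 10.12 in IGR37 and 7.33 in IGR39, and MAP1LC3B, which coats autophagosomes, at 9.74 in IGR37 and 8.56 in IGR39. The receptor OPTN was at 7.25 in IGR37 and 8.84 in IGR39. Among 10 cathepsin inhibitors, 1 (10.0%, against 5.8% of all genes) was at least 2-fold higher and none lower (against 4.85%). This was CSTB, at 12.46 in IGR37 and 11.17 in IGR39, while CST3 was at 9.67 in IGR37 and 10.26 in IGR39 (-0.58).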
